A study of Mus musculus with 16 samples.

Results

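The 30 genes described here are markers of neurons and of Schwann cells, the glia that ensheathe peripheral axons, followed through RNA sequencing of mouse aortas. They were named by symbol, and the transcript row of highest total count was taken for each, out of 24562 entries in the whole table. All 30 were found in the table. The members were chosen by their aortic levels in cre against wt libraries, with these values known, so the aortic differences of its members are given as a description, without a test. The members comprise 22 neuronal genes and 8 genes of myelin and the Schwann lineage.

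The study compared mice lacking CD40, a costimulatory receptor, in B cells with wild-type mice, all on the atherosclerosis-prone ApoE-/- strain. The groups were 5 cre aortas, 5 wt aortas, 3 cre samples of sorted peritoneal B1b cells and 3 wt samples of the same cells. The labels give the genotype as cre or wt and do not name the Cre driver, the altered part of Cd40, the age or sex of the mice, or how the aortas were trimmed. They do not say that the samples came from separate animals either, and a p-value then reflects only how far these samples scatter. After 1 transcript was kept per gene, libraries held 1645926 to 7300894 counts in cre aortas, 1979777 to 7141771 in wt aortas, 6815829 to 9911226 in cre B1b cells and 7375650 to 9209536 in wt B1b cells. Cd40 stood at 30, 30.1 and 38.2 CPM in cre B1b cells, against 39.1, 33.9 and 36.8 CPM in wt B1b cells, ranges that overlap. Since the altered part is not given, these counts do not check the labels. Levels are CPM, counts scaled to a fixed library total, with TMM-adjusted library sizes, they are not per length, and they are compared between libraries and never between genes. Replicates are numbered in the order of the samples, and the numbers pair nothing. Where 5 values are given for a group they stand in the order of replicates 1 to 5.

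Most axons that reach the aortic wall belong to postganglionic sympathetic neurons. Their cell bodies lie in ganglia outside the vessel, and they make noradrenaline from tyrosine through tyrosine hydroxylase, aromatic amino acid decarboxylase and dopamine beta-hydroxylase. Axon terminals hold little messenger RNA, whereas Schwann cells sit with their nuclei along the nerve bundles of the adventitia.

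The neuronal genes were high in 1 aorta above all, cre replicate 4. All 22 had their highest level there, while 1668 of the 13364 genes tested, or 12.5%, were highest in that library. Cre replicate 2 or cre replicate 3 came second for 21 of the 22, the exception being Rbfox1 with cre replicate 1 second. On the scale of log2(CPM + 0.5) minus the mean of the wt aortas, the median of the 22 neuronal genes was 0.51, 2.38, 2.64, 5.86 and 0.77 in the cre aortas. It lay between -0.13 and 0.06 in the 5 wt aortas. The same median of the 8 glial genes was 0.05, -0.10, -0.03, 0.45 and -0.31 in the cre aortas and lay between -0.21 and 0.13 in the wt aortas. Single glial genes went either way within these medians, and in cre replicate 2 their values ran from -1.26 for Prx to 1.53 for Sox10. In cre replicate 4, 7 of the 8 glial genes were above 0, against 2 to 6 of the 8 in the other aortas.

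**Figure D1:**
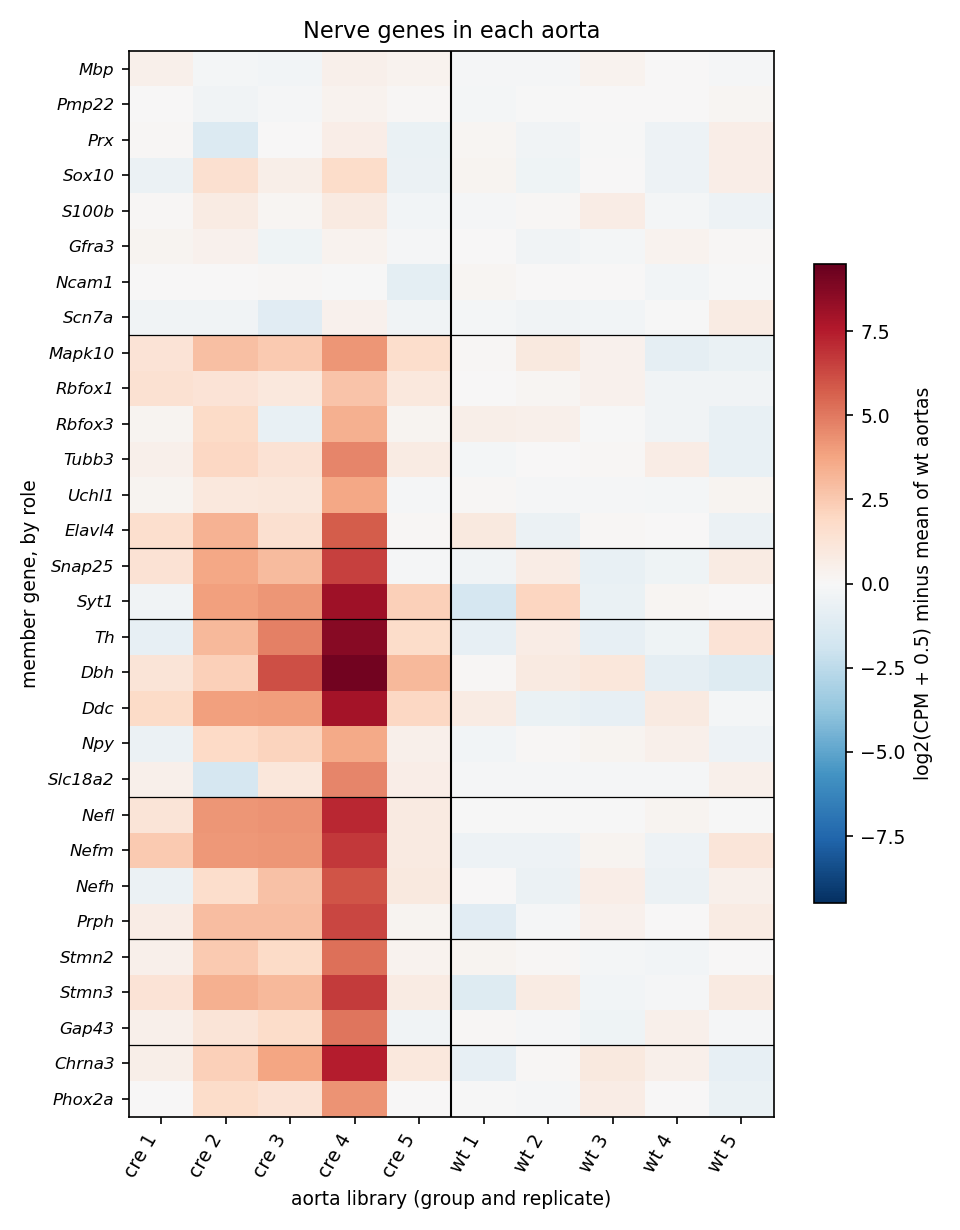
Each of the 30 genes (rows, ordered by role, with lines between roles) in each aorta (columns, cre left of wt), as log2(CPM + 0.5) minus the mean of the 5 wt aortas. The red block covers the neuronal rows of cre replicate 4 and, more faintly, of cre replicates 2 and 3. The 8 glial rows at the top stay pale on this wide colour scale, on which Sox10 at 1.77 in cre replicate 4 is also pale.

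**Figure D2:**
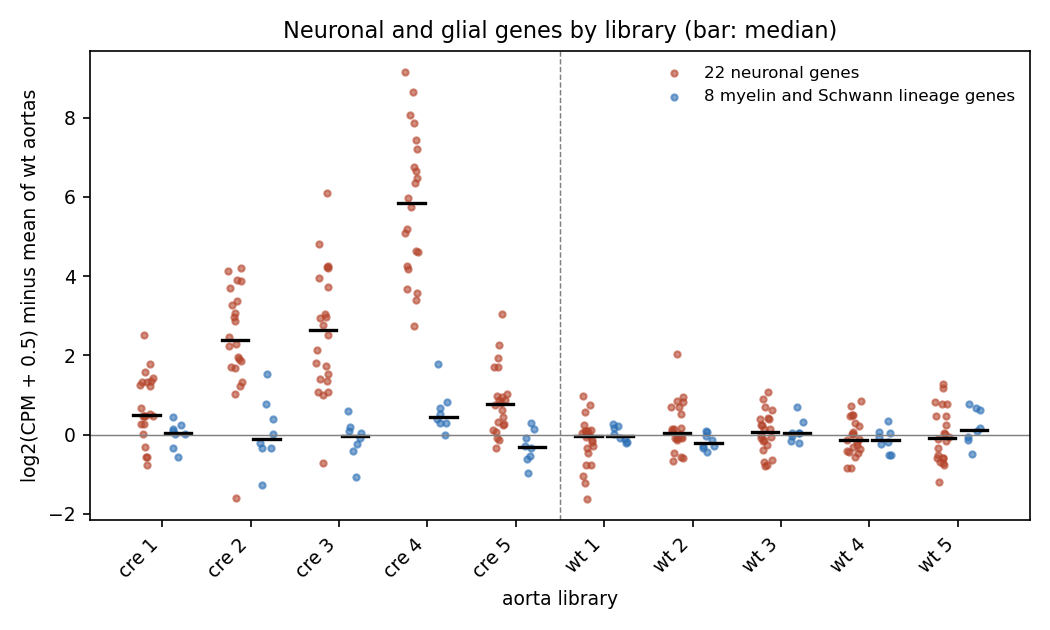
Values of the 22 neuronal genes (red points) and the 8 myelin and Schwann lineage genes (blue points) in each aorta, as log2(CPM + 0.5) minus the mean of the wt aortas, with black bars at the medians. The neuronal median reaches 5.86 in cre replicate 4, where the glial median is 0.45.

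Dbh and Th had the 2 largest ratios of cre replicate 4 to the wt mean among the members with a ratio. Dbh, the gene of dopamine beta-hydroxylase, which converts dopamine to noradrenaline (chr2:27165507-27183204 in GRCm38.p6), had 2.21, 4.91, 77.5, 648 and 8.95 CPM in cre aortas, against 0.717, 1.56, 1.90, 0.141 and 0.000 CPM in wt aortas. Every cre aorta was above every wt aorta, and cre replicate 4 stood 749 times over the wt mean. Th, the gene of tyrosine hydroxylase, the rate-limiting enzyme of catecholamine synthesis (chr7:142892779-142899995), had 0.000, 6.75, 23.6, 341 and 2.31 CPM in cre aortas, against 0.000, 0.892, 0.000, 0.141 and 1.58 CPM in wt aortas. Here the groups overlapped, because cre replicate 1 had no count. Ddc, the gene of aromatic amino acid decarboxylase (chr11:11814101-11898144), had 3.44, 16.6, 17.2, 268 and 3.86 CPM in cre aortas, against 1.43, 0.223, 0.159, 1.56 and 0.527 CPM in wt aortas. Its groups did not overlap. The log2 fold change of Ddc was 6.23 (SE 1.64) over all aortas and 3.55 without cre replicate 4.

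Slc18a2 encodes the vesicular monoamine transporter, which loads noradrenaline into vesicles (chr19:59260878-59296012). It had 6.87, 1.23, 10.6, 130 and 7.56 CPM in cre aortas, against 4.30, 4.46, 4.28, 4.39 and 6.86 CPM in wt aortas. The groups overlapped, because cre replicate 2 was the lowest of all 10 aortas, at 2 counts, while the other 4 cre aortas were above every wt aorta. That order is not firm, since cre replicate 1 at 6.87 CPM was barely above wt replicate 5 at 6.86 CPM, where 1 count equals 0.527 CPM. Npy, the gene of neuropeptide Y, a cotransmitter of vasoconstrictor axons, had 6.63, 38.7, 45.6, 126 and 13.9 CPM in cre aortas, against 8.13, 10.7, 11.9, 14.1 and 6.86 CPM in wt aortas. Its step between cre replicate 4 and the next aorta was 2.75 times, against 15.5 times for Ddc and 14.4 times for Th.

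Promoter windows from 250 bases before to 50 bases after the start were available in RefSeq (GRCm38.p6) for 20 of the 30 genes. The windows of Th, Slc18a2 and Dbh are printed because, of the 5 catecholamine and transmitter members, these 3 held the element or its half-site. Ddc and Npy had windows without either. Each is written 5′ to 3′ on the strand of the gene, with capitals for the cyclic AMP response element, a site of cyclic AMP response element binding proteins, or for its half-site.
Th (chr7:142899946-142900245, minus strand): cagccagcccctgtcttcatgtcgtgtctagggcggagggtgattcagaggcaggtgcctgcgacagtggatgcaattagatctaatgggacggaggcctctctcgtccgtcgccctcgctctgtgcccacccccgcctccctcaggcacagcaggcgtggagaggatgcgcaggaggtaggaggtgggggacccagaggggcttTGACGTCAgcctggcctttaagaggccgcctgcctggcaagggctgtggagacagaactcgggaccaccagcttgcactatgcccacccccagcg
Slc18a2 (chr19:59260628-59260927, plus strand): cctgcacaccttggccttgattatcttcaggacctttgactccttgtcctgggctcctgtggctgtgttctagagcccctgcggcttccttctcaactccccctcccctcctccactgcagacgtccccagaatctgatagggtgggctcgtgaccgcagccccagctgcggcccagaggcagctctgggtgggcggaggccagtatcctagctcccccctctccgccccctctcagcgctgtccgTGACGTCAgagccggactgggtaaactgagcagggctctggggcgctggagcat
Dbh (chr2:27165257-27165556, plus strand): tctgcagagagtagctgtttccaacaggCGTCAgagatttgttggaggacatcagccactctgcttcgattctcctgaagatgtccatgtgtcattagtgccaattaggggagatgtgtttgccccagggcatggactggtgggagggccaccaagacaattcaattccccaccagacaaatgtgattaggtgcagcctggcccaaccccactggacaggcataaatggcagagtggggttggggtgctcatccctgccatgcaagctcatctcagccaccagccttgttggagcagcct
The full element TGACGTCA began 45 bases before the start of Th and 4 bases before that of Slc18a2. Dbh held only the half-site TGACG, on the other strand as CGTCA, 222 bases before its start. These matches are letters in a window, and no binding was measured.

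The search covered 12 motifs on both strands, chosen with the values of the members known, and is read as a description; 3 longer composite motifs that were also looked for are not described here. Members are counted by gene, whereas the percentages are shares of single windows, so the units differ. TGACGTCA was in 3 of the 20 members with a window (Th, Slc18a2 and Mapk10) and in 1.79% of all 32851 windows, and TGACG, which lies inside it, was in 5 members and 20.8% of windows. GGACAGC, the right end of the element bound by REST, a repressor of neuronal genes, was in 4 members and 6.56% of windows. The E-box CAGCTG was in 5 members and 16.3% of windows, the E-box CACCTG in 4 members and 20.2%, and the E-box CATCTG in 5 members and 17.2%. The SOX motif ACAAAG was in 4 members and 18.7% of windows, and the SOX motif ACAATG in 4 members and 12.6%. The TATA box TATAAA was in 3 members and 13.6% of windows, the GC box GGGCGG in 10 members and 35.7%, the EGR motif GCGTGGGCG in 1 member and 0.612%, and the AP-1 motif TGACTCA in 0 members and 5.2%.

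Genes of ganglion identity and of synaptic release were likewise highest in cre replicate 4. Chrna3, a subunit of the nicotinic receptor through which preganglionic fibres excite autonomic neurons, had 0.736, 3.68, 10.9, 147 and 1.23 CPM in cre aortas, against 0.000, 0.446, 1.11, 0.707 and 0.000 CPM in wt aortas. Phox2a, a homeodomain factor of noradrenergic neurons, had 2.70, 9.82, 7.80, 60 and 2.78 CPM in cre aortas, against 2.63, 2.45, 4.60, 2.69 and 1.58 CPM in wt aortas. In both genes cre replicates 1 and 5 lay among the wt aortas or barely above them. Syt1, the calcium sensor of vesicle release, had 0.736, 22.1, 28.1, 411 and 6.79 CPM in cre aortas, against 0.000, 5.80, 0.476, 1.27 and 1.05 CPM in wt aortas. Snap25, a membrane partner in vesicle fusion, had 4.17, 23.3, 13.9, 163 and 1.23 CPM in cre aortas, against 0.956, 2.45, 0.634, 0.849 and 2.64 CPM in wt aortas. The groups overlapped for both genes. Their log2 fold changes were 5.80 (SE 1.72) for Syt1 and 4.98 (SE 1.41) for Snap25, and 3.01 and 2.86 without cre replicate 4.

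The neurofilament genes, whose products set axon calibre, were near 0 in wt aortas. Nefl, the light neurofilament chain, had 0.736, 9.21, 9.45, 76.5 and 0.463 CPM in cre aortas, against 1 count in total, in replicate 4, over the 5 wt aortas. Nefm, the medium chain, had 3.44, 11.7, 12.3, 74.1 and 0.771 CPM in cre aortas, against 0.000, 0.000, 0.317, 0.000 and 1.05 CPM in wt aortas. Nefh, the heavy chain, had 0.000, 1.84, 4.49, 45.7 and 0.925 CPM in cre aortas, against 0.239, 0.000, 0.634, 0.000 and 0.527 CPM in wt aortas. Of these 3 chains, Nefl alone had every cre aorta above every wt aorta. Prph, the gene of peripherin, a filament of peripheral neurons (chr15:99053579-99058978), had 5.89, 30.7, 30.2, 322 and 4.32 CPM in cre aortas, against 1.43, 3.12, 4.76, 3.54 and 6.33 CPM in wt aortas. Cre replicates 1 and 5 were both below wt replicate 5 for Prph.

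The growth-associated genes were again highest in cre replicate 4. Stmn2, a regulator of axonal microtubules, had 13.0, 53.4, 33.3, 358 and 11.7 CPM in cre aortas, against 11.0, 10.3, 8.24, 7.64 and 9.49 CPM in wt aortas. The groups did not overlap, although the gap between cre replicate 5 and wt replicate 1 was small. Stmn3, a relative of Stmn2, had 2.45, 11.7, 9.21, 117 and 1.54 CPM in cre aortas, against 0.000, 1.56, 0.476, 0.566 and 1.58 CPM in wt aortas. Gap43, a growth cone protein, had 4.17, 7.36, 10.6, 114 and 2.16 CPM in cre aortas, against 3.11, 2.68, 2.06, 4.24 and 2.64 CPM in wt aortas. Both Stmn3 and Gap43 overlapped between the groups.

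Neuron-wide genes varied in the step between cre replicate 4 and the next aorta, from 2.5 times for Mapk10 to 6.33 times for Tubb3. Mapk10, the gene of the neuronal kinase JNK3, had 7.36, 22.7, 17.5, 56.8 and 9.72 CPM in cre aortas, against 2.87, 5.58, 3.65, 1.27 and 1.58 CPM in wt aortas. Rbfox1, a splicing factor of neurons and striated muscle, had 12, 11.0, 8.74, 30.2 and 8.64 CPM in cre aortas, against 4.30, 4.68, 5.71, 3.25 and 3.16 CPM in wt aortas. In both genes every cre aorta was above every wt aorta, and cre replicate 4 was only 2.5 and 2.51 times the next aorta. Their fold changes without cre replicate 4 were 2.18 and 1.23 on the log2 scale, against 2.91 (SE 0.60) and 1.74 (SE 0.38) with it.

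Tubb3, the neuronal beta-tubulin, had 21.6, 62.0, 40.6, 392 and 26.5 CPM in cre aortas, against 13.6, 15.6, 17.3, 26.0 and 9.49 CPM in wt aortas. Uchl1, an abundant ubiquitin hydrolase of neurons, had 47.4, 80.4, 83.2, 503 and 35.5 CPM in cre aortas, against 42.5, 37.0, 36.6, 34.2 and 45.9 CPM in wt aortas. Both genes had a sizeable level in every wt aorta, and cre replicates 1 and 5 differed little from it. Elavl4, a neuronal RNA-binding protein, had 1.72, 6.75, 1.65, 39.5 and 0.308 CPM in cre aortas, against 0.956, 0.000, 0.317, 0.283 and 0.000 CPM in wt aortas. Rbfox3, which encodes the nuclear antigen NeuN, had the lowest counts of the neuronal members, from 0.000 to 8.15 CPM in cre aortas and from 0.000 to 0.717 CPM in wt aortas.

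Over the 22 neuronal genes, 6 had every cre aorta above every wt aorta (Mapk10, Rbfox1, Dbh, Ddc, Nefl and Stmn2), and among all genes tested 1.6% had that order. None of the 30 members had every cre aorta below every wt aorta, and 1.29% of all genes tested did. The low-count filter kept 13 of the 22 for the fit. Rbfox3, Elavl4, Th, Dbh, Nefl, Nefm, Nefh, Stmn3 and Chrna3 did not pass it, since too few aortas reached the required count. The 13 that passed had a median log2 fold change of 2.91, and of 1.26 without cre replicate 4, beside a median of 0 over all genes tested. None of the 21 members tested in aortas was called by edgeR at an adjusted p of 0.05 (13 had an unadjusted p under 0.05; DESeq2 called 6 and limma-voom 0). Over all genes edgeR called 2 of 13364, or 0.015%. Of the 13364, 1683 had an unadjusted edgeR p under 0.05, and over all genes DESeq2 called 204 and limma-voom 1. Because the members were chosen with this contrast known, nothing is read from these counts.

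Myelin and Schwann lineage genes did not follow the neuronal order as a set. Still, 4 of the 8 were highest in cre replicate 4, beside 12.5% of all genes tested. Pmp22, a peripheral myelin membrane protein that other cells of the vessel wall also make, had 272, 212, 255, 333 and 298 CPM in cre aortas, against 234, 263, 276, 279 and 302 CPM in wt aortas. Prx, the gene of periaxin, a scaffold of myelinating Schwann cells, had 13.3, 4.91, 12.8, 20.0 and 8.02 CPM in cre aortas, against 14.6, 9.81, 12.2, 8.63 and 20.0 CPM in wt aortas. Cre replicate 2 was the lowest aorta for both. Sox10, the transcription factor of the Schwann lineage, had 3.68, 17.2, 8.74, 20.4 and 3.70 CPM in cre aortas, against 6.93, 4.01, 5.87, 3.82 and 8.97 CPM in wt aortas. It was the glial member closest to the neuronal pattern, with cre replicates 4 and 2 highest, but cre replicates 1 and 5 lay below every wt aorta.

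S100b, a calcium-binding protein of glia and fat cells, had 30.9, 48.5, 32.4, 50.8 and 23.0 CPM in cre aortas, against 26.3, 30.1, 45.8, 24.6 and 20.0 CPM in wt aortas. Scn7a, a sodium channel family gene expressed by non-myelinating Schwann cells, had 77.6, 76.7, 46.5, 128 and 77.6 CPM in cre aortas, against 85.8, 79.4, 83.7, 93.7 and 168 CPM in wt aortas. Wt replicate 5 led Scn7a, and cre replicate 4 came second. Gfra3, the receptor of artemin, had 7.61, 8.59, 4.73, 8.01 and 6.02 CPM in cre aortas, against 6.45, 5.13, 5.71, 8.35 and 6.86 CPM in wt aortas. Ncam1, a neural adhesion molecule, had 314, 313, 331, 306 and 159 CPM in cre aortas, against 350, 325, 320, 263 and 295 CPM in wt aortas. Cre replicate 5 was the lowest aorta for Ncam1 in this row. The Ncam1 row of lowest total count had another order, with cre replicate 1 lowest at 22.8 CPM and wt replicate 5 highest at 99.2 CPM. The groups overlapped in all 8 glial genes, all of which passed the filter. Their median log2 fold change was 0.06, and -0.02 without cre replicate 4.

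Mbp, the gene of myelin basic protein, depends on which transcript row is read. The row of highest total count, NM_001025245, starts 79.4 kb upstream of NM_001025251, one of the 6 rows that start at the myelin promoter, and it is the row used for the member. That upstream row, of the golli kind that lymphocytes also make, had 30.7, 19.0, 18.7, 32.1 and 27.5 CPM in cre aortas, against 20.8, 20.3, 27.7, 23.2 and 20.0 CPM in wt aortas. It had 144 to 158 CPM in cre B1b cells and 139 to 168 CPM in wt B1b cells, above every aorta. The row NM_001025251 had 26.3, 12.9, 23.4, 101 and 16.8 CPM in cre aortas, against 9.32, 14.9, 17.3, 11.7 and 57.0 CPM in wt aortas. It was therefore high in cre replicate 4 and wt replicate 5, and it had 16.5 to 20.3 CPM in cre B1b cells and 14.4 to 21.4 CPM in wt B1b cells. Another row, NM_010777, also starts upstream, but it ends at 82585637, whereas NM_001025245 ends at 82558703. It had 98.0 CPM in cre replicate 4 and 57.0 CPM in wt replicate 5. The start site alone therefore does not separate the rows that were high in these 2 aortas from the member row. Rows of 1 gene share exons, so the deposited counts do not separate the transcripts fully.

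**Figure D3:**
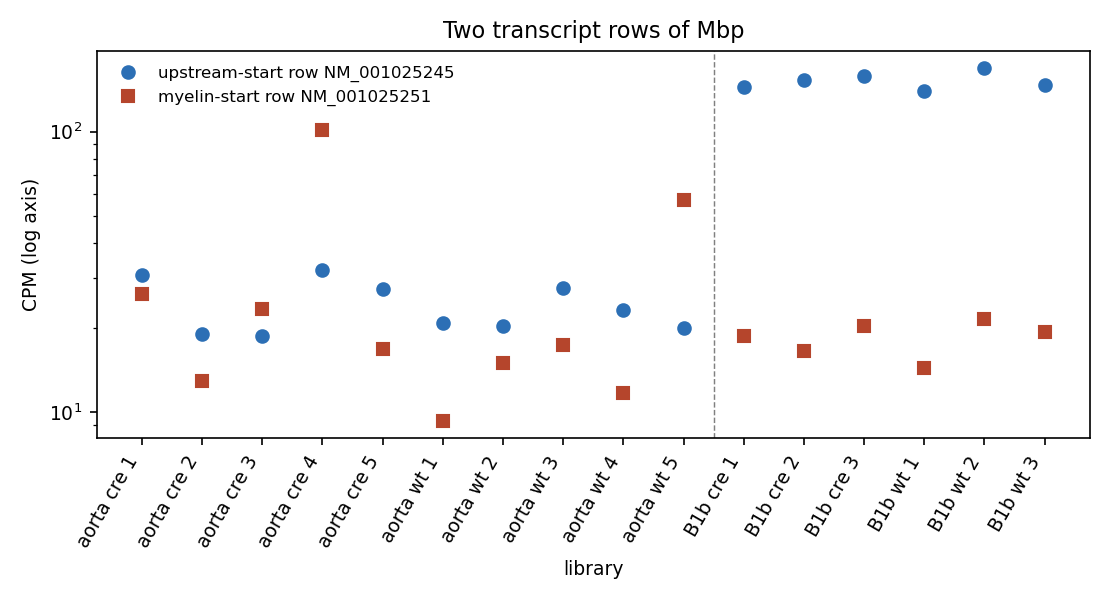
CPM (log axis) of the upstream-start row NM_001025245 (blue circles) and a myelin-start row (red squares) of Mbp in all 16 libraries, cre left of wt within each tissue. The plotted upstream row is near 150 in B1b cells and under 33 in aortas, while the myelin-start row reaches 101 in aorta cre replicate 4 and 57.0 in aorta wt replicate 5. Another upstream-start row, NM_010777, is not plotted.

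Of 30 further genes of Schwann cells and myelin, 18 were highest in cre replicate 4, beside 12.5% of all genes tested. The 30 summed to 1617 CPM there, to 777.6 to 1019 CPM in the other cre aortas and to 572.1 to 929.9 CPM in wt aortas. The 23 that were tested had a median log2 fold change of 0.43, and of 0.05 without cre replicate 4. Of these 23, 20 were above 0, beside 50.2% of all genes tested. Cre replicate 4 and wt replicate 5 were the 2 highest aortas for 9 of the 30, and wt replicate 5 was 1 of the 2 highest for 11. For the 22 neuronal genes, wt replicate 5 was among the 2 highest for 0.

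Cre replicates 2 and 3, the next highest aortas for most neuronal genes, were set against each other as libraries, with 95% exact intervals that cover counting error only. For 21 of the 22 neuronal members a ratio of CPM in replicate 2 to CPM in replicate 3 could be formed, Rbfox3 having 0 counts in replicate 3. The interval held 1 for 13 of them, lay above 1 for 4 and lay below 1 for 4. The ratio was 1.01 for Prph (0.717 to 1.42), 0.974 for Nefl (0.5 to 1.8) and 1.27 for Stmn3 (0.691 to 2.24). The 4 above 1 were Elavl4 at 4.08 (1.45 to 12.4), Snap25 at 1.67 (1.08 to 2.56), Stmn2 at 1.6 (1.21 to 2.11) and Tubb3 at 1.53 (1.18 to 1.96). The 4 below 1 were Chrna3 at 0.339 (0.118 to 0.795) and 3 catecholamine genes, whose ratios were 0.0634 for Dbh (0.0271 to 0.126), 0.286 for Th (0.138 to 0.534) and 0.115 for Slc18a2 (0.0136 to 0.442). Slc6a2, the noradrenaline transporter, was at 0.0866 (0.0392 to 0.167), and Ddc, which serves dopamine and serotonin synthesis too, was at 0.961 (0.594 to 1.51). Of the other members tied to noradrenergic neurons, Npy was at 0.848 (0.628 to 1.13) and Phox2a at 1.26 (0.647 to 2.35).

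Of the 8 listed cholinergic and nitrergic genes, 3 named after their values were seen were highest in cre replicate 2. Chat, the enzyme of acetylcholine synthesis, had 5.52 CPM from 9 counts in cre replicate 2, 0.945 CPM from 4 counts in cre replicate 3, and 0 counts in the other 8 aortas, cre replicate 4 included. Slc5a7, the choline transporter, had 11.0 CPM in cre replicate 2 and at most 1.87 CPM elsewhere. Slc18a3, the vesicular acetylcholine transporter, had 6.14 CPM in cre replicate 2 and 0.000 to 0.935 CPM elsewhere. Cre replicate 2 was the shallowest library, where 1 count equals 0.614 CPM, so these levels rest on 9, 18 and 10 counts. Ache, which is on the same list, was highest in cre replicate 4 at 84.3 CPM, with 11.7 CPM in cre replicate 2 and 8.74 CPM in cre replicate 3.

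**Figure D4:**
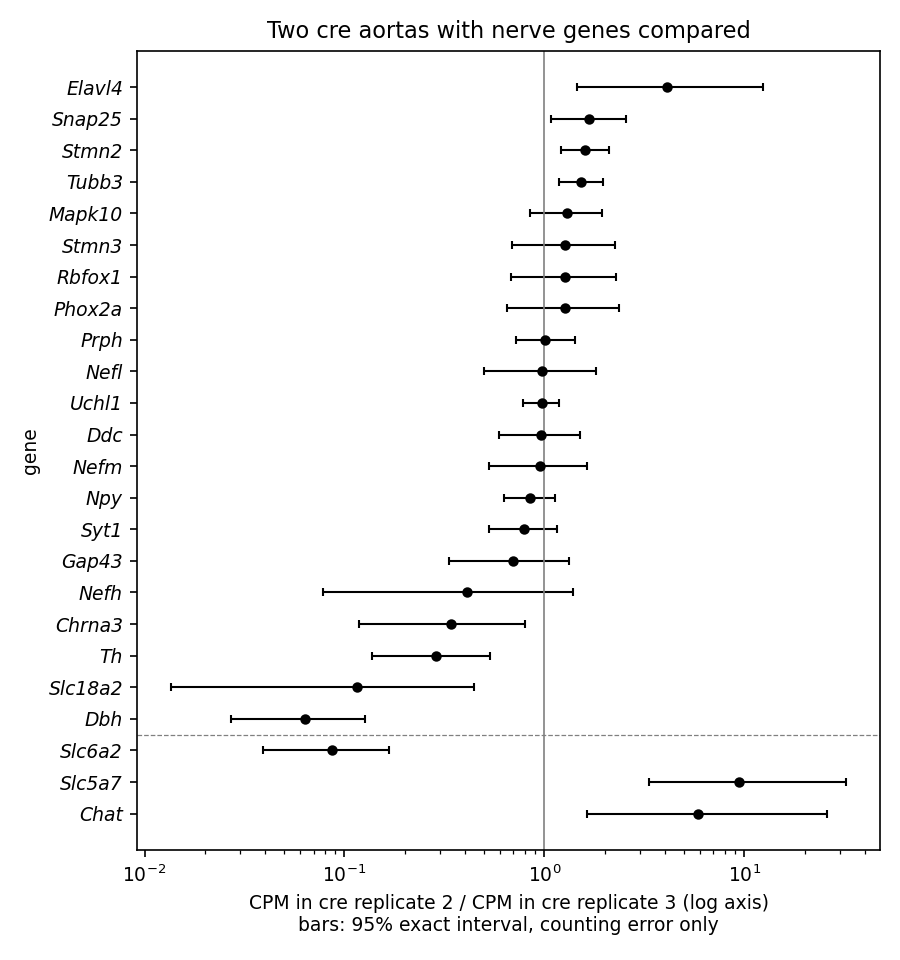
Ratio of CPM in cre aorta replicate 2 to CPM in cre aorta replicate 3 (log axis) for the 21 neuronal members with a ratio, above the dashed line, and 3 other nerve genes below it, with 95% exact intervals for counting error only; the solid line marks equal levels. The intervals of 13 members cross that line, Elavl4 at 4.08 lies to the right, Dbh at 0.0634 and Slc6a2 at 0.0866 lie far to the left, and Chat and Slc5a7 lie to the right.

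Beyond the members, 199 other nerve genes were listed, with earlier results of these data known, and 113 of them passed the aortic filter. None was called by edgeR (45 had an unadjusted p under 0.05; DESeq2 called 9 and limma-voom 0), and the edgeR adjusted p of the genes named from these lists, the 3 of smallest p in each, ran from 0.176 to 0.965. Of all 13364 genes tested, 1683 had an unadjusted edgeR p under 0.05, and over all genes DESeq2 called 204 and limma-voom 1. Slc6a2 had 4.17, 5.52, 63.8, 1050 and 13.0 CPM in cre aortas, against 4.30, 6.02, 4.28, 5.52 and 5.80 CPM in wt aortas, a log2 fold change of 5.49. Of the 28 listed autonomic genes 24 were highest in cre replicate 4, beside 12.5% of all genes tested, but only 11 of the 28 passed the filter. Gata2, a transcription factor, and Gch1, which makes the cofactor of tyrosine hydroxylase, had log2 fold changes of 0.78 and 1.12. Among Schwann genes, Ngfr, the low-affinity neurotrophin receptor that sympathetic neurons share, had 5.64, 27.0, 33.5, 303 and 5.55 CPM in cre aortas, against 4.78, 1.78, 3.33, 3.82 and 3.16 CPM in wt aortas. It followed the neuronal order, at a log2 fold change of 4.49, whereas Tspan2 stood at -0.48 and Art3 at 0.58.

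Synapse genes were highest in cre replicate 4 in 21 of 24 cases, with Syp, a vesicle protein, at a log2 fold change of 2.5, Rab3a at 1.16 and Sncg at 1.14. Cytoskeleton genes were highest there in 22 of 24 cases, with Dpysl5 at 3.02, Ank3 at 0.81 and Tuba4a at 0.73. Of 24 genes of neuronal RNA-binding proteins and channels 17 were highest there, and Celf3 stood at 2.63, Nova1 at 0.77 and Cacna2d1, a calcium channel subunit, at -0.51. The filter kept 15 of the synapse genes, 20 of the cytoskeleton genes and 14 of the RNA-binding and channel genes. Of all genes tested, 12.5% were highest in cre replicate 4. Ache, the enzyme that breaks down acetylcholine, was the 1 cholinergic gene tested and stood at 3.17. The sensory neuron list had 3 of 16 genes highest in cre replicate 4, with Avil at 2.34, Ntrk2 at 0.04 and Ntrk3 at -0.59. Calca, the gene of the sensory peptide CGRP, reached at most 0.491 CPM in cre aortas and 0.446 CPM in wt aortas.

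Genes of factors and receptors in the tissue around nerves did not pass either. Of 18 neurotrophic and guidance factors 2 were highest in cre replicate 4, and the 13 tested had a median log2 fold change of -0.26. Sema3a, a repellent of sympathetic axons, had a log2 fold change of -1.05, with Slit2 at -0.56 and Nrtn at 0.60. Of 15 adrenergic receptor and catecholamine breakdown genes 7 were highest in cre replicate 4, and the 12 tested had a median of 0.45, 10 of them above 0. Npy1r, a neuropeptide Y receptor, stood at -0.79, Adrb3, a beta-adrenergic receptor of fat cells, at 1.03 and Adra1b at 0.93. Slc17a7, a vesicular glutamate transporter and the 1 gene tested of the central nervous system list, stood at 2.5, and cre replicate 4 had 3.74 CPM of it with the remaining cre aortas at 5.52 to 20.3 CPM and 0.283 to 3.57 CPM in wt aortas.

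In each aorta the genes whose level was at least 4 times that of the next highest aorta were counted over all 13364 tested genes. Cre replicate 4 led 98 genes this way, 1 of which has only a clone name and was left out of the naming, and the other 9 aortas led from 0 to 8 each. Of the 98, 10 were members and 25 were other listed nerve genes, 35.7% together, and 14 more were protocadherin alpha rows, which share exons and so share reads. The 13364 genes held 13 neuronal members, 8 glial members and 113 other listed nerve genes. The members were chosen by these aortic values and the lists with earlier results known, so nothing is read from the share of listed genes. The 12 of largest ratio, from 16.4 down to 10.7, were Slc6a2, Ddc, Tspan8, Syt1, Nrcam, Syt4, Snhg11, Slc18a2, Cntn1, Syngr3, Avil and Gap43. Tspan8, Nrcam, Snhg11 and Syngr3 were not on any nerve list. The level of Tspan8, a tetraspanin, was 65.1 CPM in cre replicate 4, compared with 0.945 to 4.42 CPM in the remaining cre aortas and 0.239 to 3.11 CPM in wt aortas.

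Markers of other tissues also differed between aortas. Summed over 8 genes, adipocyte markers stood at 2450, 1751, 4830, 5582 and 2190 CPM in cre aortas, against 981.5, 1035, 1874, 1670 and 4600 CPM in wt aortas. They were high in cre replicates 3 and 4 and in wt replicate 5, and wt replicate 5 had no high neuronal level. Summed over 12 genes, heart muscle markers stood at 7488, 4025, 6945, 847.4 and 6831 CPM in cre aortas, against 2396, 3056, 3141, 712.3 and 1627 CPM in wt aortas. Cre replicate 4, the highest library for neuronal genes, was the lowest cre aorta for heart muscle, and 5 of the 12 heart genes had every cre aorta above every wt aorta. Skeletal muscle markers summed to 114.2 to 1057 CPM over 12 genes in cre aortas and to 31.69 to 142.4 CPM in wt aortas, highest in cre replicate 1. The part of these tissues in the neuronal differences was not tested.

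Smooth muscle markers, which define the aortic wall, were present in all aortas, at summed levels of 9033 to 23820 CPM in cre aortas and 13760 to 19040 CPM in wt aortas. Endothelial markers summed to 917.5 to 1939 CPM in cre aortas and 1014 to 1934 CPM in wt aortas. Adventitial fibroblast markers summed to 12560 to 21970 CPM in cre aortas and 19150 to 25830 CPM in wt aortas, and macrophage markers to 3263 to 5857 CPM in cre aortas and 2248 to 5266 CPM in wt aortas. Markers of perineurium and endoneurium, the sheaths of nerves, summed to 167.5 to 219.1 CPM over 10 genes in cre aortas and to 194.4 to 269.5 CPM in wt aortas. Slc2a1 and Foxc1 made up much of this sum. Slc2a1 is not limited to nerves, with 82.1 to 106 CPM in cre B1b cells and 60.2 to 90.6 CPM in wt B1b cells. Of the 10 genes, 2 were highest in cre replicate 4, Cldn1 among them, and 1 had 0 counts in all aortas. The sum therefore does not show whether nerve sheath differed between aortas. Brown adipocyte markers summed to 765.7 to 1930 CPM in cre aortas and to 405.6 to 1971 CPM in wt aortas. The 9 adrenal markers summed to 19.03 to 38.04 CPM in cre aortas and 21.93 to 33.13 CPM in wt aortas. Of them 3 had 0 counts in all aortas, and Pnmt, the adrenaline-making enzyme of the adrenal medulla, reached 0.709 CPM in cre aortas and 0.476 CPM in wt aortas. Penk had 11.0 to 28.4 CPM in cre aortas and 11.7 to 26.0 CPM in wt aortas. Star had 5.89 to 10.7 CPM in cre aortas, highest in replicate 4, and 5.24 to 9.56 CPM in wt aortas. In whole tissue, fewer cells of a type and less RNA per cell cannot be told apart, and neither can genotype and any difference in dissection that went with it.

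**Figure D5:**
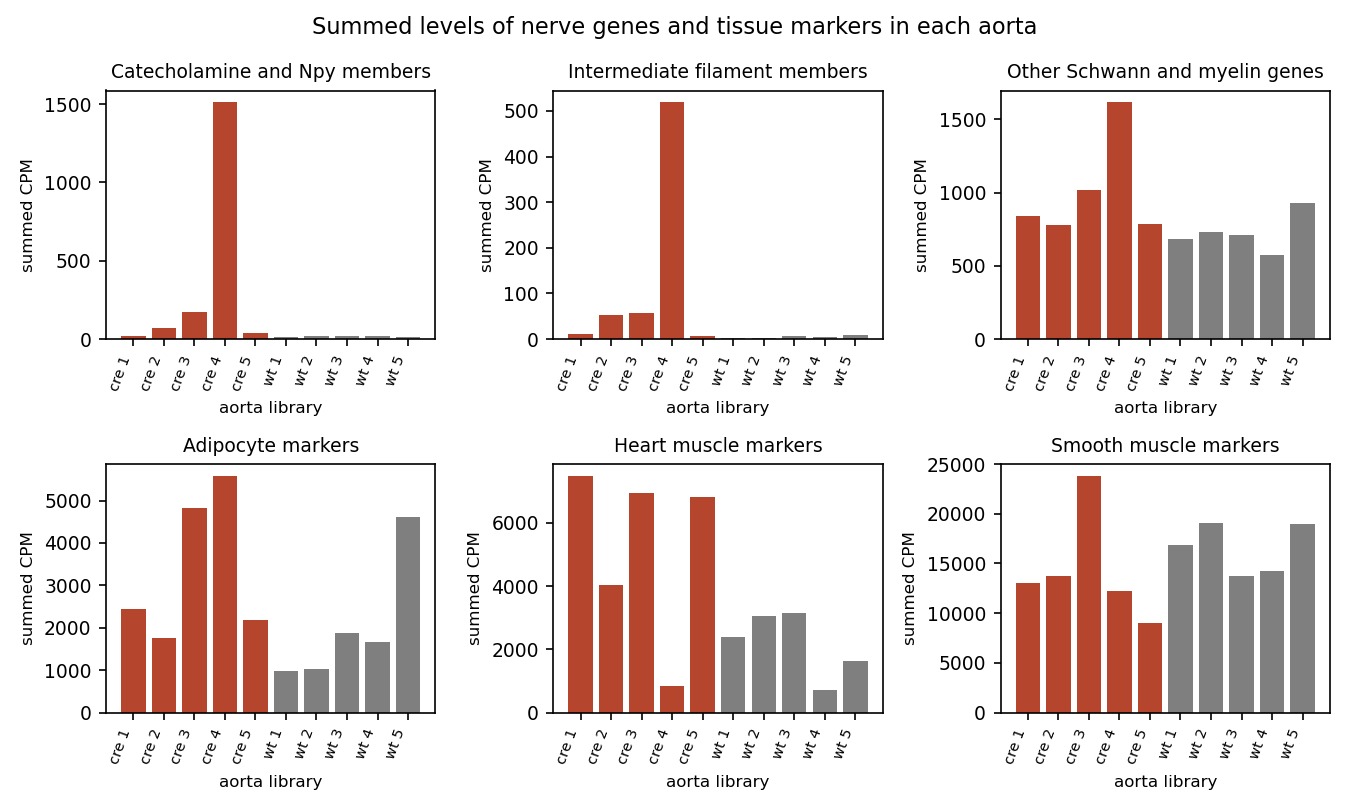
Summed CPM of 6 gene lists in each aorta, cre (red) left of wt (grey), each panel with its own axis from 0. The 5 catecholamine and neuropeptide members sum to 1512 CPM in cre replicate 4 and to at most 20.4 CPM in any wt aorta, while adipocyte markers are also high in wt replicate 5.

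B1b cells, a cell type without axons, gave the members' levels in a sorted population that the choice of members did not use. Of the 30 members 21 had a mean under 1 CPM there, 15 of them neuronal and 6 glial, and Sox10 and Nefl had 0 counts in all 6 libraries. Th had 0 counts in cre B1b cells and 2 counts in wt B1b cells, and Dbh had 2 counts in each group. The members with a mean of at least 5 CPM were Mbp, Tubb3 and Nefh. Nefh had 8.28, 11.8 and 10.4 CPM in cre B1b cells, against 12.9, 8.84 and 8.26 CPM in wt B1b cells, a difference within the spread between samples. Its level in B1b cells was above that of the wt aortas, where it stayed under 1 CPM, unlike that of Nefl and Nefm.

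The B1b fit tested 9 members and called none of them by edgeR (1 had an unadjusted p under 0.05; none was called by DESeq2 or limma-voom), beside 83 of 11732 genes called, or 0.707%. Of the 11732, 1563 had an unadjusted edgeR p under 0.05, and over all genes DESeq2 called 197 and limma-voom 77. Tubb3 had 12.7, 9.95 and 19.5 CPM in cre B1b cells, against 20.0, 23.7 and 16 CPM in wt B1b cells. Its log2 fold change was -0.48 (95% interval -0.96 to -0.01, edgeR adjusted p = 0.368). Ncam1 had 1.83, 1.76 and 2.11 CPM in cre B1b cells, against 5.11, 2.95 and 3.26 CPM in wt B1b cells, from 48 and 91 counts. Its log2 fold change was -0.98 (95% interval -1.96 to 0.01, edgeR adjusted p = 0.384). The log2 fold change with its 95% interval was 0.44 for Slc18a2 (-0.52 to 1.41), -0.06 for Mapk10 (-1.31 to 1.18), -0.96 for Rbfox3 (-2.35 to 0.42), -0.72 for Snap25 (-2.07 to 0.64) and 0.53 for Prx (-1.35 to 2.42). Mbp stood at 0.00 (-0.18 to 0.19) and Nefh at 0.02 (-0.49 to 0.54). The intervals of Mbp and Nefh were narrow, and those of the members with few counts were wide.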

How the data were processed

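RNA from aortas and sorted B1b cells was sequenced. The deposited table holds raw counts, 1 row for each RefSeq transcript, deposited by the authors without normalization. The submitters' processing notes name the mm10 build, STAR 2.5.2b and CASAVA 1.8.2. How reads were counted, and on which strand, is not given in the sources used here. Of 35745 transcripts, 35440 took a gene name from the RefSeq table, 188 from GENCODE and 117 none. The transcript of highest total count was kept per gene, since transcripts of a gene share reads.

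Each tissue was fitted alone with edgeR 4.0.16 in R 4.3.3 (TMM, filterByExpr, robust quasi-likelihood F test, Benjamini-Hochberg adjustment over all genes, threshold 0.05), after a test on simulated data. DESeq2 1.42.0, limma 3.58.1 (voom), other filters, other transcripts, other library sets and all 16 libraries in 1 fit were alternatives. Fold changes are log2, cre minus wt. All members are accounted for, with a value in every aorta where the mean was at least 5 CPM. The members, the gene lists and the tests were chosen with earlier results of these data known. One count equalled 0.134 to 0.614 CPM in aortas.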

Additional observations from a re-analysis of the deposited data

Results flagged for a closer look

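Dixon's test at the 95% level was run on log2(CPM + 0.5) in both aorta groups for the 30 members, 60 groups in all, and 5 groups had a library far from the others. Chance flags about 1 group in 20. The members were chosen by these aortic values, so the flags describe single libraries and support nothing about the groups. Rbfox1 was at 30.2 CPM in cre replicate 4, with 8.64 to 12 CPM in the other cre aortas. Ncam1 was at 159 CPM in cre replicate 5, with 306 to 331 CPM in the other cre aortas. Scn7a was at 168 CPM in wt replicate 5, with 79.4 to 93.7 CPM in the other wt aortas, and Slc18a2 at 6.86 CPM in the same library, with 4.28 to 4.46 CPM in the others. Nefl was at 0.141 CPM in wt replicate 4, which is 1 count, and at 0 in the other wt aortas, so its flag rests on that count.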

How the results depend on the processing

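No paired analysis was possible because the labels give no replicate numbers that groups share. The count of aortic genes called, 2 by edgeR, was 47 with all 16 libraries in 1 fit, 204 by DESeq2, 1 by limma-voom, 7 by limma-voom with quality weights, 1 with the lowest transcript per gene, 92 without the 2 aortas under 2000000 counts (cre replicate 2 and wt replicate 5), and 0 to 14 when 1 aorta was left out, 14 being without cre replicate 4. It was 0 when cre replicate 1, wt replicate 1 or wt replicate 3 was dropped, and 1 when cre replicate 2, cre replicate 5 or wt replicate 2 was dropped. Aortic members called, 0, became 2 with all 16 libraries and 6 by DESeq2, and other nerve genes called, 0, became 9 by DESeq2. The median log2 fold change of the tested neuronal members, 2.91, was 4.67 with all 16 libraries, 4.62 without a filter, 1.52 with quality weights and 1.26 to 3.56 with 1 aorta left out, lowest without cre replicate 4. That of the glial members lay between -0.02 and 0.13 throughout. The B1b count of 83 was 0 with all 16 libraries, 197 by DESeq2, 327 without a filter and 35 to 103 with 1 library left out. Without wt replicate 1 it was 35, without cre replicate 1 it was 36, and without cre replicate 2 it was 42. In B1b cells Mbp, at 0.00, changed sign with all 16 libraries (0.00), with quality weights (-0.03) and with 1 library left out (-0.05 to 0.09), and Nefh, at 0.02, with 1 library left out (-0.09 to 0.25). Of 399 alternative fold changes of members in aortas, 381 were within 1 SD of the main value and 18 moved, 10 of them without cre replicate 4. This SD is not the SE of a fold change and can be wider. Npy in aortas, at 1.04 with quality weights against 2.14 (SE 0.70), was counted as within it. Of the 399, 10 changed sign, such as Prx, from -0.07 to 0.26 without the 2 aortas under 2000000 counts. Mbp in aortas moved from 0.20 to 0.84 with the lowest transcript per gene. The filter of at least 1 CPM in 5 aortas or 3 B1b libraries kept more aortic genes than edgeR's own. The cause of these shifts was not tested. Low depth limits the members near 0 in wt aortas, where single counts decide a level.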
